A study of Mus musculus with 4 samples.

Results

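Mature B cells were studied here in single-cell RNA sequencing of bone tissue from wild-type mice. They were chosen by their own counts: a droplet barcode was a mature B cell when it held at least 3 unique molecular identifiers (UMIs, 1 per captured transcript molecule) of Cd79a and Cd79b together and at least 1 UMI of Ms4a1 or Ighd. It also had to hold fewer than 2 UMIs of the precursor genes Vpreb1, Vpreb3 and Igll1, fewer than 2 of Cd3e, Cd3d and Cd3g, and fewer than 3 of the monocyte genes Csf1r, Ms4a6c and Ccr2. Of 31279 barcodes that passed the quality limits, 1011 met this rule. The study compared 2 untreated mice (Ctrl) with 2 mice that had been suspended by the tail for 28 days (hindlimb unloading, HLU). With 2 libraries in each group, 1 library per animal is assumed here. The leg bones were rinsed with cold buffer to clear the marrow before enzymatic digestion, so these B cells are those that stayed with the rinsed bone. The sources used here give different ages for the mice, and no age is printed. The comparison asks how cells of bone respond when load is taken off the limbs.

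B cells are the lymphocytes that make antibody. They arise in bone marrow, where precursors assemble first the heavy and then the light chain of the antigen receptor, and leave it as immature cells that finish maturing in the spleen. Mature naive cells carry receptors of the IgM and IgD classes, in which the immunoglobulin is paired with the signalling chains CD79A and CD79B, and many of them recirculate through the marrow. They also show peptides to helper T cells on MHC class II molecules.

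The RefSeq sequence in front of Cd79a is shown because Cd79a is both part of the rule and a textbook target of the B cell factor EBF1. Those in front of H2-Aa and H2-Eb1 are shown because these class II genes had lower levels in HLU libraries (below), and because class II genes are known to be read through a shared X and Y box element. Capitals mark the letters searched, AAGGGAAT (core letters of an EBF site) in Cd79a and CTGATTGG (the Y box) in the others, each on both strands of the 250 bases before the transcript start in GRCm38.p6.
Cd79a, chr7:24897294-24897361, plus strand: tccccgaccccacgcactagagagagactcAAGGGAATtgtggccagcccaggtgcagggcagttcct
H2-Eb1, chr17:34305775-34305842, plus strand: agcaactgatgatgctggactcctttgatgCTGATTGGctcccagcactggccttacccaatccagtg
H2-Aa, chr17:34287837-34287904, minus strand: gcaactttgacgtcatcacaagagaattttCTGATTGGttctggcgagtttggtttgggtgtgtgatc
The marked letters began 173, 62 and 51 bases before the start. AAGGGAAT was found in 1.10% and CTGATTGG in 3.83% of all 32851 windows. The X box letters GCAAC followed after 15 to 30 bases by TGATTGG, on either strand, were in 0.149% of windows and in those of 5 of 10 class II list genes with a window (H2-Aa, H2-Eb1, H2-Eb2, H2-Oa and H2-Ob). The CTGATTGG match overlaps the TGATTGG of this pair. These matches describe the letters and say nothing about binding in these cells.

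The genes of the rule sit on separate chromosomes in GRCm38 (GENCODE M21): Cd79a on chromosome 7 (24897381 to 24902197), Cd79b on 11 (106311341 to 106314762), Ms4a1, which encodes CD20, on 19 (11249675 to 11266241), and the IgD constant gene Ighd on 12 (113406604 to 113416324). The median cell held 13, 14, 13 and 7 UMIs of Cd79a and Cd79b in Ctrl 1, Ctrl 2, HLU 1 and HLU 2. Just inside the limit, 6, 7, 23 and 35 cells had exactly 3 of these UMIs, and just outside it 4, 14, 20 and 43 barcodes that met every other condition had exactly 2.

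Genes that the rule did not use had the pattern of mature B cells. With each cell thinned to 1000 UMIs so that libraries of different depth could be compared, Cd74, the class II invariant chain, had a UMI in 92.6%, 95.2%, 92.0% and 92.4% of cells in Ctrl 1, Ctrl 2, HLU 1 and HLU 2. Ebf1, the early B lineage factor, had one in 50.6%, 57.8%, 62.4% and 55.2%. In barcodes with at least 5% of their UMIs from S100a8 and S100a9, which are rich in neutrophil transcripts and should lack these genes (500 drawn per library), the same shares were 2.0% to 4.2% for Cd74 and 0.2% to 1.2% for Ebf1. Before thinning, Ebf1 was found in 91.4%, 94.7%, 93.0% and 85.4% of mature B cells, at median depths of 3668, 4217, 3700 and 2446 UMIs per cell. It was found in 0.8% to 3.4% of the neutrophil-rich barcodes, at median depths of 3608 to 6210 UMIs.

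Siglech, Dntt, Trbc2, Trac, Lck and Rag1, genes of other lymphoid cells, were at 0 or in under 5% of cells. Some other members of the marker lists were in more. Unthinned in Ctrl 1, Ctrl 2 and HLU 1, the plasmacytoid dendritic list gene Tcf4 was found in 46.9%, 53.5% and 36.1% of cells. Xbp1, of the plasma cell list, was found in 22.2%, 24.1% and 22.2%. The precursor list gene Myb was found in 4.94%, 3.74% and 9.16%. Unthinned, the plasmacytoid dendritic gene Siglech and the precursor gene Dntt (terminal transferase) had 0 UMIs in all 1011 cells, the T cell gene Trbc2 had a UMI in 0.0% to 0.5% of cells, Trac in 0.915% to 2.67% and the kinase gene Lck in 0.723% to 4.81% (0.2% to 1.0% of neutrophil-rich barcodes for Lck), and the recombinase gene Rag1 in 0.0% to 1.2%. In the precursor B cells of Ctrl 1, Ctrl 2 and HLU 1, cells with at least 2 UMIs of the precursor genes, Rag1 was found in 46.2%, 30.6% and 45.0%. The 18 such cells of HLU 2 had Rag1 in 0 cells and Cd74 in all 18, so in that library they did not carry the pattern of the other 3.

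**Figure D1:**
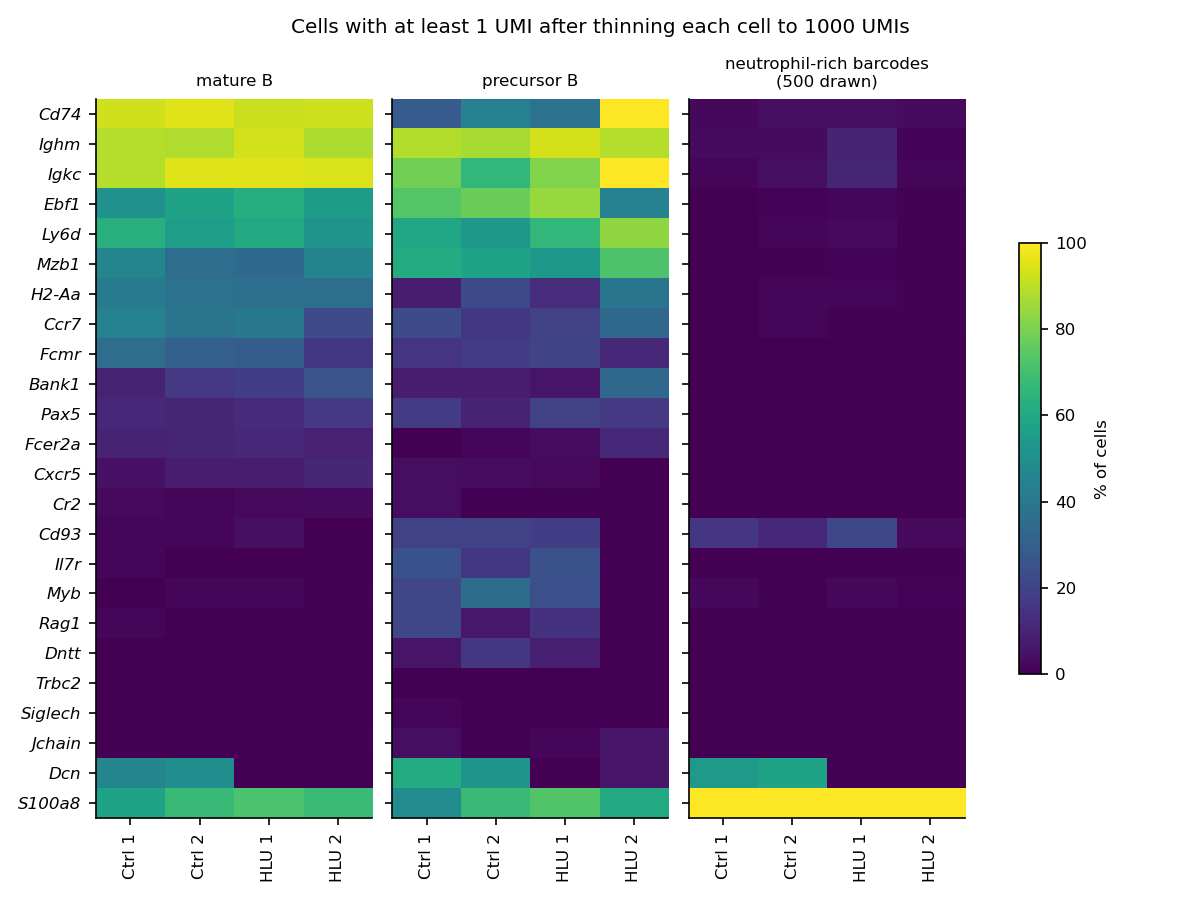
Share of cells with at least 1 UMI of each gene (colour, 0 to 100%) in mature B cells, precursor B cells and 500 neutrophil-rich barcodes per library, after each cell was thinned to 1000 UMIs. Cd74 reaches 92.0% to 95.2% of mature B cells in every library, whereas the skeletal transcript Dcn is found in 45.7% and 49.2% of Ctrl and in 0.0% and 0.3% of HLU mature B cells, with a like split in the neutrophil-rich barcodes.

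The genes that stood highest in mature B cells relative to all other barcodes included, in order, Cd79a, Iglc2, Ighd, Iglc3, Cd79b, Ighm, Cd74, Ly6d, Fcmr, Ms4a1, Mzb1, Igkc, Ptprcap and Ccr7. This list is a description, since cells chosen by some B cell genes must differ in others. It holds receptor chains and their signalling partners, the IgM receptor Fcmr, the class II chain Cd74, and the homing receptor gene Ccr7, which guides cells to lymph nodes. For Fcmr the log2 ratio of levels (CPM, UMIs scaled to a total of 1000000 per library, with 10 added to each) averaged 4.53 ± 0.68 (SD, n = 4 libraries), from 482, 281, 329 and 158 CPM in mature B cells against 0.914, 2.84, 9.11 and 0.644 CPM in the other barcodes. Fcmr was at 0 CPM in the T cells of all 4 libraries. Mature and precursor cells shared Cd79a, with 1960, 1693, 1991 and 1376 CPM against 2320, 1846, 2739 and 1875 CPM.

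Several values of whole libraries bear on what follows. The 4 libraries held 47819046 to 99849070 UMIs, and the mature B cells held 400606, 1057804, 2039351 and 1151354 UMIs in Ctrl 1, Ctrl 2, HLU 1 and HLU 2. HLU 2 stood apart, with a median of 1151 genes per mature B cell against 1540 to 1587 and with 2.86% mitochondrial UMIs against 5.23% to 5.57%. Skeletal marker transcripts made up 1.73% and 1.93% of the mature B cells' UMIs in Ctrl and 0.00363% and 0.0258% in HLU. S100a8 and S100a9 made up 0.303%, 1.87%, 3.52% and 5.16%. Among all passing barcodes, those with at least 5% skeletal UMIs made up 37.5% and 26.3% in Ctrl against 0.370% and 0.820% in HLU, and the neutrophil-rich ones 28.6% and 42.1% against 68.0% and 65.2%. Libraries shared 0 member barcodes, and putative doublets made up 6.17%, 10.2%, 11.3% and 7.32% of mature B cells.

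Mature B cells were a larger share of the passing barcodes in both HLU libraries than in both Ctrl libraries. They were 81 of 7311 barcodes (1.11%, exact 95% binomial interval 0.881% to 1.38%) in Ctrl 1 and 187 of 7495 (2.49%, 2.15% to 2.87%) in Ctrl 2. In HLU 1 they were 415 of 7571 (5.48%, 4.98% to 6.02%) and in HLU 2 328 of 8902 (3.68%, 3.30% to 4.10%). The groups did not overlap, with means of 1.80% ± 0.98 in Ctrl and 4.58% ± 1.27 in HLU (SD, n = 2 libraries each), but 2 libraries against 2 cannot reach p < 0.05: p was 0.33 by an exact permutation test (two-sided), which is the smallest this design allows. The intervals cover counting error only. The labels number the replicates without naming animals, and 1 library per animal is assumed.

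The order of the shares depended on what they were shares of. Among barcodes with a Ptprc UMI (the pan-leukocyte gene encoding CD45, with members counted with or without one) the shares were 2.72%, 4.26%, 6.31% and 4.03%, and HLU 2 lay below Ctrl 2 (exact permutation p = 0.667). Among barcodes with under 1% S100a8 and S100a9 and under 1% skeletal UMIs they were 8.13%, 12.7%, 21.5% and 11.8% (exact permutation p = 0.667). With only cells of at least 2000 UMIs they were 1.28%, 2.85%, 6.70% and 2.63%, and the groups overlapped again. The part of the neutrophil-rich and skeletal barcodes in the larger HLU share was not tested beyond these denominators.

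**Figure D2:**
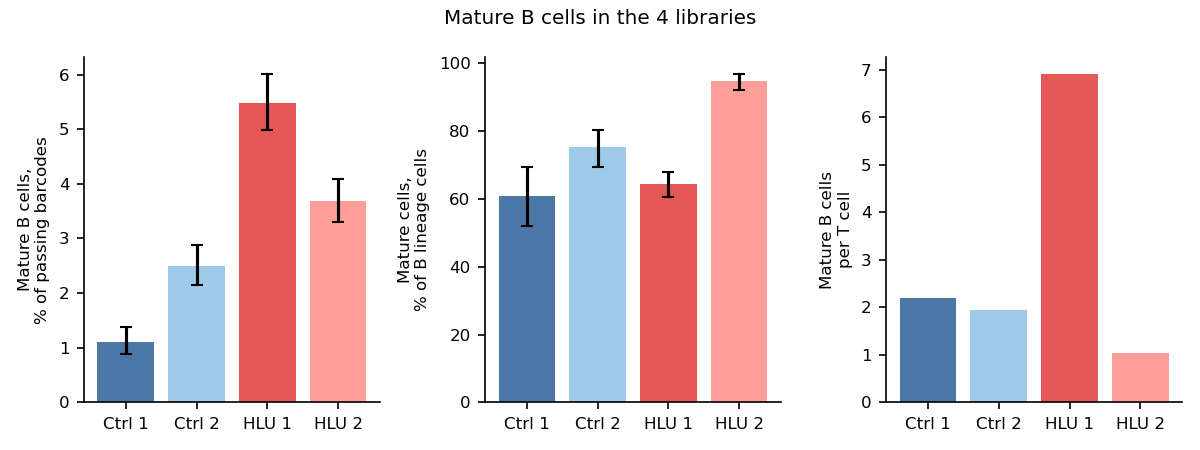
Mature B cells as a percentage of passing barcodes, mature cells as a percentage of mature and precursor B cells together (both with exact 95% binomial intervals, counting error only), and mature B cells per T cell, 1 bar per library. The first panel separates Ctrl (1.11% and 2.49%) from HLU (5.48% and 3.68%), and the other panels do not.

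Against their precursors and against T cells, mature B cells did not differ between groups in a steady direction. Mature cells were 60.9% and 75.1% of all B lineage cells in Ctrl, and 64.2% and 94.8% in HLU. The precursor cells of HLU 2 did not carry the precursor pattern of the other libraries (above), so its 94.8% is uncertain. HLU 1 lay between the Ctrl libraries and HLU 2 above them, and the mean difference of 11.5 percentage points (exact permutation p = 0.667) turned to -3.76 without HLU 2. There were 2.19 and 1.95 mature B cells per T cell in Ctrl and 6.92 and 1.03 in HLU. The Ctrl values lay between the HLU values, and the difference of 1.91 (exact permutation p = 1) turned to -1.03 without HLU 1. HLU 1 held 231 precursor B cells and 60 T cells beside its 415 mature B cells, and HLU 2 held 18 and 317 beside its 328, so the 2 unloaded mice differed more in the make-up of their lymphocytes than the 2 Ctrl mice did (52 and 37 beside 81, and 62 and 96 beside 187).

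Heavy chain UMIs were nearly all of the unswitched classes. Ighm, which the rule did not use, had 1401, 3304, 8463 and 5213 UMIs, against 2, 6, 42 and 6 of Igha and 1, 19, 29 and 1 of the IgG genes together. With Ighd counted in, IgM and IgD made up 99.8%, 99.4%, 99.3% and 99.9%, a share that the rule raises because Ighd can admit a cell. Ighm was found in 81 of 81, 186 of 187, 415 of 415 and 324 of 328 cells. Ighm together with Ighd, which is part of the rule, was found in 81.5%, 92.0%, 92.0% and 93.6%. The IgA gene Igha had a UMI in 2.47%, 3.21%, 7.47% and 1.52% of cells, against 3.2%, 4.2%, 4.0% and 1.0% of the neutrophil-rich barcodes. The Ctrl shares lie at or below that background. Those of HLU 1 and HLU 2 lie above it, the latter at a lower depth (2446 against 6210 UMIs), with 4 and 1 cells of at least 2 Igha UMIs. Cells with at least 2 UMIs of an IgG gene numbered 0, 3, 5 and 0.

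Markers of B cell subsets were compared at equal depth. Thinned to 1000 UMIs, the follicular gene Fcer2a (CD23) had a UMI in 9.88%, 10.2%, 11.6% and 9.15% of cells, against 0.0% of neutrophil-rich barcodes in every library. Cr2 (CD21) had one in 2.47%, 1.60%, 2.41% and 2.74%, again against 0.0%. Cd93, which marks immature cells newly out of the marrow, had one in 1.23%, 1.60%, 4.10% and 0.305%, below the 2.4% to 21.8% of the neutrophil-rich barcodes. Those barcodes may express Cd93 themselves, so the comparison cannot decide whether mature B cells did, and no expression is read from it. Ccr7 was found in 44.4%, 38.5%, 40.5% and 22.9%, with HLU 2 the lowest. Before thinning, Ccr7 was found in 76.5%, 80.2%, 77.6% and 42.1%, and Fcer2a in 27.2%, 22.5%, 27.5% and 21.0%.

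A single barcode of HLU 2 stood out from all other members. It held 25243 UMIs, of which 32.9% were immunoglobulin UMIs, with 5743 of Igkc, 2371 of Ighm, 111 of the joining chain gene Jchain and 40 of the secretory factor gene Xbp1. The next highest immunoglobulin share in HLU 2 was 5.77%, and the highest in the other libraries were 7.02%, 8.83% and 7.28%. Jchain and Xbp1 are genes of antibody-secreting cells, and the barcode was among the putative doublets. This barcode moved the light chain ratio of its library. The lambda constant genes Iglc1 to Iglc4 gave 28.2%, 26.1%, 28.5% and 18.8% of light chain UMIs, a difference between group means of -3.51 percentage points (exact permutation p = 1). Without it HLU 2 stood at 28.4%, level with the others, and the difference was 1.28 (exact permutation p = 0.33, the smallest possible).

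**Figure D3:**
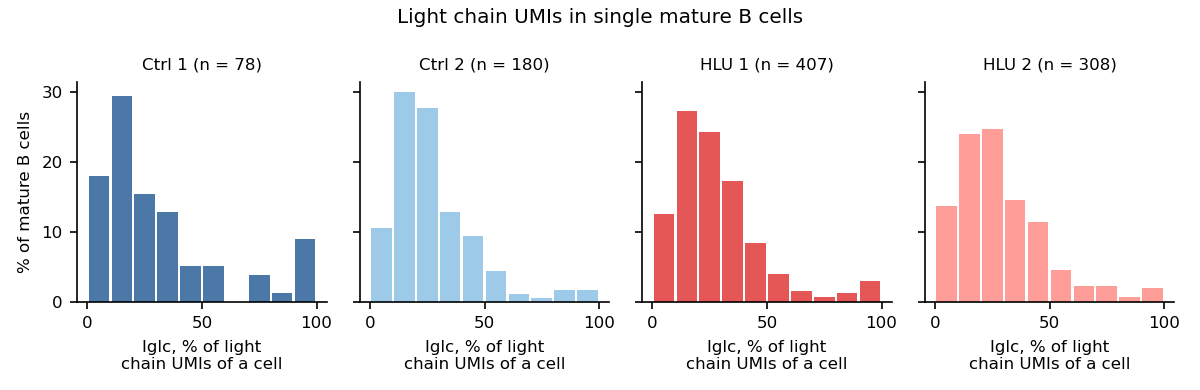
Distribution over single mature B cells of the percentage of light chain UMIs (Igkc and Iglc1 to Iglc4) that come from the Iglc genes, in steps of 10 percentage points, for cells with at least 10 such UMIs. The bulk of cells in all 4 libraries lies under 50%, with a small second group near 100%.

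Single B cells are known to express either a kappa or a lambda light chain. Here the median cell with at least 10 light chain UMIs had 21.5%, 22.1%, 23.8% and 25% of them from Iglc genes. Cells with over 80% Iglc UMIs, as a lambda cell would have, numbered 8 of 78 (10.3%, exact 95% interval 4.53% to 19.2%), 6 of 180 (3.33%, 1.23% to 7.11%), 17 of 407 (4.18%, 2.45% to 6.60%) and 7 of 308 (2.27%, 0.919% to 4.63%). The groups overlapped. Between 20% and 80% lay 42.3%, 56.1%, 56.0% and 60.1% of cells. Iglc2 and Iglc3 are near-identical copies whose reads the counting could split, so the values of the single Iglc genes are uncertain. Heavy chain variable genes gave only 6 to 119 UMIs per library, and variable regions were not compared.

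Summed over the cells of each library, 8280 genes were tested for a difference between HLU and Ctrl, and 253 (3.06%) had an adjusted p under 0.05 (edgeR's quasi-likelihood test, Benjamini-Hochberg): 7 were higher in HLU (0.0845% of genes tested) and 246 lower (2.97%). An unadjusted p under 0.05 was found for 773 of the 8280 genes, the background for such counts below. The groups did not overlap for 39.8% of genes tested, with both HLU libraries lower for 20.4% and both higher for 19.4%. Genes of the rule were left out of this test. Of the 253 called genes, 251 stood lower in mature B cells than in the other barcodes of the same libraries, and the exceptions were Pmepa1 and Gdf5. Of all 8280 genes tested, 2564 stood lower in this way. In Ctrl 1 all 5 Gdf5 UMIs came from 1 cell, and 22 of 39 Pmepa1 UMIs from 1 cell. In Ctrl 2 the 11 Gdf5 UMIs lay in 6 cells and the 72 Pmepa1 UMIs in 34. Of 730 tested genes at least 2-fold higher in mature B cells than in the other barcodes, 0 were called by edgeR (14 at an unadjusted p under 0.05), with a median log2 fold change of -0.02. Their groups did not overlap for 30%.

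The count of called genes rested on the filter on low counts, on single libraries and on cells rich in transcripts of other cells. It was 679 (153 higher, 526 lower) with no filter and 17 (0 higher, 17 lower) with at least 10 counts in every library; 55 of the 253 called genes were at 0 in both HLU libraries. It was 163 without Ctrl 2, 485 without HLU 2 and 1006 without HLU 1. It was 84 (1 higher, 83 lower) when cells with at least 5% S100a8 and S100a9 or at least 5% skeletal UMIs were left out.

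**Figure D4:**
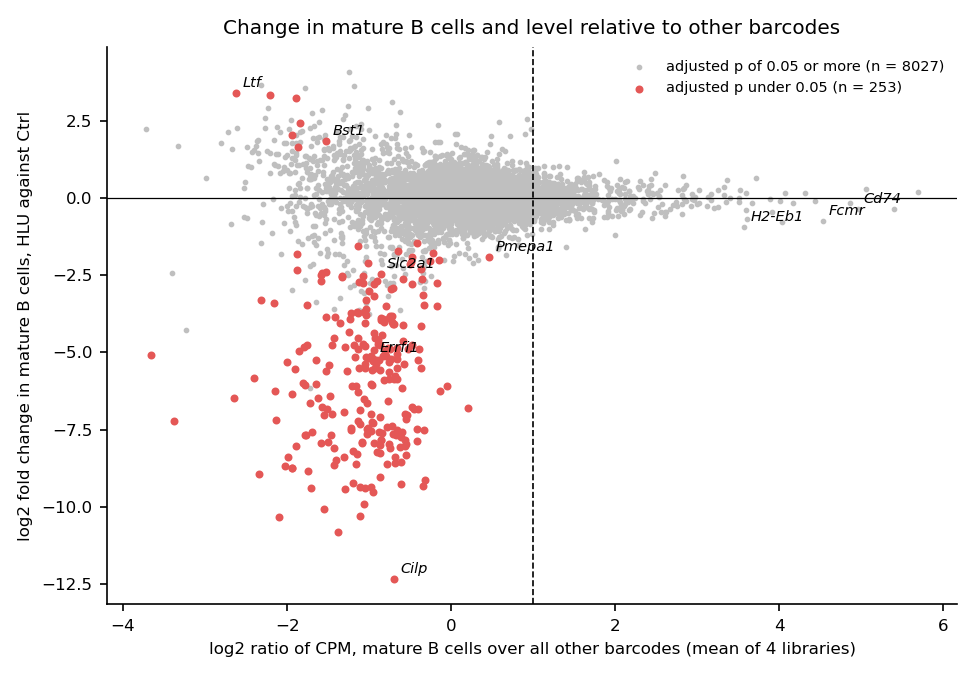
Each point is 1 of the 8280 genes tested, with its log2 ratio of CPM in mature B cells over all other barcodes on the horizontal axis (mean of 4 libraries, 10 CPM added) and its log2 fold change in mature B cells, HLU against Ctrl, on the vertical axis. The 253 genes with an adjusted p under 0.05 (red) lie left of the dashed line at a 2-fold ratio, and 0 of the 730 genes at or right of it are red.

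The falls were led by cartilage and connective tissue genes. Cilp, which encodes a cartilage matrix protein, stood at 646 and 454 CPM (scaled by TMM, as are all levels tied to this test) in mature B cells of Ctrl 1 and Ctrl 2 and at 0 in both HLU libraries, at least 609-fold lower by a floor of 3 counts over the group (adjusted p = 0.000249). Tnfrsf11b, the RANKL decoy receptor osteoprotegerin, stood at 203 and 183 against 0 and 0, at least 214-fold lower (adjusted p = 0.000249). Ctgf, a matricellular growth factor gene, was at 2382 and 1166 against 0.464 and 2.57 CPM. The other largest falls were Gas1, 1500015O10Rik, Prelp, Wif1, P4ha2, Cytl1 and Pmp22, all with an adjusted p under 0.05 and both HLU libraries below both Ctrl libraries.

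These genes moved in the same way in cells that are not B cells. In the other Ctrl barcodes 242 of the 246 genes that fell were higher than in Ctrl mature B cells, by a median of 2.87-fold. By group means, 238 of the 246 were also lower in HLU in the T cells and 238 in the precursor B cells. No share over all genes is given for these counts. The skeletal marker list had 18 of 26 genes tested, of which 16 fell and 18 had both HLU libraries lower (2.97% and 20.4% of all genes). Its summed level was 17469, 20113, 24.6 and 250 CPM. The collagen gene Col2a1 was at 233 and 726 against 1.39 and 0 CPM. Dcn, a proteoglycan gene, had a UMI in 91.4% and 92.0% of Ctrl mature B cells and in 92.2% and 94.2% of Ctrl neutrophil-rich barcodes, against 1.4% and 1.8% of HLU mature B cells and 1.2% and 2.2% of HLU neutrophil-rich barcodes. The part of these transcripts in the other differences was not tested, apart from the cells left out above.

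The 7 rises were Ltf, F630028O10Rik, Cd177, AA467197, Mcemp1, Bst1 and Itgam. Ltf encodes the granule protein lactoferrin, and Cd177 and Itgam encode surface proteins of neutrophils. Ltf was at 17.7 and 56.0 CPM in Ctrl and at 273 and 573 in HLU (log2 fold change 3.4 ± 0.55 SE, adjusted p = 0.0123), and in the other barcodes its means were 531 and 1283 CPM. All 7 were higher in the other barcodes than in mature B cells and also higher in HLU among those other barcodes. When the cells with at least 5% neutrophil or skeletal transcripts were left out, Ltf had a log2 fold change of 0.24 (adjusted p = 0.990). The same step left Bst1, the 1 of 10 tested genes of the transitional B cell list that rose, at 0.89 (adjusted p = 0.955). In that setting 6 of the 7 lost the call and Cd177 gave no value. Without Ctrl 1 only F630028O10Rik was still called (Ltf had an adjusted p of 0.0583), and without Ctrl 2 the calls of AA467197, Mcemp1, Bst1 and Itgam were lost (adjusted p of 0.0540 to 0.240). The neutrophil marker list had 15 of 16 genes tested, of which 1 rose (0.0845% of all genes) and 10 had both HLU libraries higher (19.4% of all genes). Of 7 monocyte genes tested, Fn1 fell (2.97% of all genes did), from 942 and 1740 to 20.4 and 8.57 CPM (adjusted p = 0.000502). Mean Fn1 levels were also lower in HLU in the other barcodes (4625 CPM in Ctrl, 250 in HLU) and in T cells (1136 and 9.83 CPM). The T cell, plasmacytoid dendritic and megakaryocyte lists had 0 genes with counts enough to test, and the NK cell and erythroid lists 1 each, neither called.

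Genes of B cell identity did not pass the test. Among 24 B cell transcription factors tested, 0 passed the test by edgeR (1 at an unadjusted p under 0.05), with a median log2 fold change of 0.12 against 0.01 over all genes. Ebf1 was at 798, 884, 935 and 720 CPM in Ctrl 1, Ctrl 2, HLU 1 and HLU 2 (log2 fold change -0.02 ± 0.27 SE). Pax5, which holds B cells to their lineage, was at 124, 86.9, 113 and 153 CPM. Spib and Pou2af1, partners in B cell transcription, were at 101.3, 88.9, 94.1 and 82.3 and at 154, 156, 193 and 158 CPM. The libraries of the groups overlapped for Ebf1, Pax5 and Spib.

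Of 25 B cell receptor signalling genes tested, 0 passed by edgeR (1 at an unadjusted p under 0.05), though 12 had both HLU libraries higher and 1 both lower, with a median of 0.32. Groups were apart in 52% of the list, against 39.8% of all genes (19.4% with both HLU libraries higher and 20.4% with both lower). Syk, the kinase that CD79 recruits, was at 185 and 190 CPM in Ctrl and at 296 and 261 in HLU (0.57 ± 0.27 SE, adjusted p = 0.585). Inpp5d, which encodes the inhibitory phosphatase SHIP1, was at 43.0 and 70.9 against 101.1 and 104.6 CPM (0.80 ± 0.31 SE, adjusted p = 0.430). Lyn, a kinase upstream of Syk, was at 129 and 133 against 165 and 172 CPM (adjusted p = 0.811). The HLU values lay above the Ctrl values for these 3 genes. On levels without TMM scaling, 14 of the 25 had both HLU libraries higher in mature B cells, 18 in the other barcodes and 14 in the neutrophil-rich ones. For these unscaled levels no share over all genes is given, so the counts are not read as a result about the list. The inhibitory receptor gene Cd22 was at 32.9, 41.0, 39.4 and 40.3 CPM, and its groups overlapped.

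Among genes high in mature B cells, the class II gene H2-Eb1 came nearest to the threshold, with lower levels in HLU. H2-Eb1, the gene of a class II beta chain on chromosome 17 (34305867 to 34316674), was at 633 and 639 CPM in Ctrl 1 and Ctrl 2 and at 353 and 314 in HLU 1 and HLU 2, with means of 636 ± 4.60 and 333 ± 27.6 (SD, n = 2 each). Its log2 fold change was -0.93 ± 0.26 (SE), with an unadjusted p of 0.00684 and an adjusted p of 0.155 by edgeR, the smallest among the 730 genes at least 2-fold higher in mature B cells. H2-Aa, the gene of a class II alpha chain (chromosome 17, 34282744 to 34287823), was at 734 and 714 against 463 and 448 CPM (-0.67 ± 0.25 SE, adjusted p = 0.401). For both genes the gap between the groups exceeded the spread within them. With HLU 1 left out, H2-Eb1 passed at an adjusted p of 0.000826, Cd74 at 0.00238 and H2-Aa at 0.0316; with HLU 2 left out, H2-Eb1 passed at 0.0189. Each of these fits sets a single HLU library against 2 Ctrl libraries and takes its spread from the Ctrl pair alone, so it describes that library. In every other setting tried, Ctrl 1 or Ctrl 2 left out included, 0 class II genes were called.

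Other genes of the class II list moved less. Cd74 was at 5370 and 5067 against 4503 and 3623 CPM (-0.36 ± 0.22 SE, adjusted p = 0.728). H2-Ab1, the other main beta chain gene, was at 613 and 516 against 367 and 591 CPM, and its groups overlapped (-0.24 ± 0.31 SE, and 0.07 without HLU 1). H2-DMb2, whose product helps load peptides, was at 70.9 and 72.9 against 53.8 and 42.9 CPM (adjusted p = 0.651), and the transactivator gene Ciita was at 12.7, 35.0, 23.6 and 19.7 CPM. In all, 0 of 12 class II list genes passed by edgeR (2 at an unadjusted p under 0.05), 5 had both HLU libraries lower and 0 both higher, with a median of -0.33. Groups were apart in 41.7% of the list against 39.8% of all genes. Of all genes, 20.4% had both HLU libraries lower and 19.4% both higher. Summed without TMM scaling, the list was at 7788, 7125, 6541 and 5561 CPM in mature B cells, where 4 of 12 genes had both HLU libraries lower. In the other barcodes the sum was 208, 361, 514 and 307 CPM, with 0 of 12 genes lower and 4 higher in both HLU libraries, and in skeletal-rich barcodes 6 were lower. Among precursor B cells 1 was lower and 2 higher, with 8613 CPM in HLU 2 against 1821 to 2893 in the other libraries. The HLU 2 precursor cells did not carry the precursor pattern of the others (above). These unscaled counts have no share over all genes beside them and are not read as a result about the list.

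**Figure D5:**
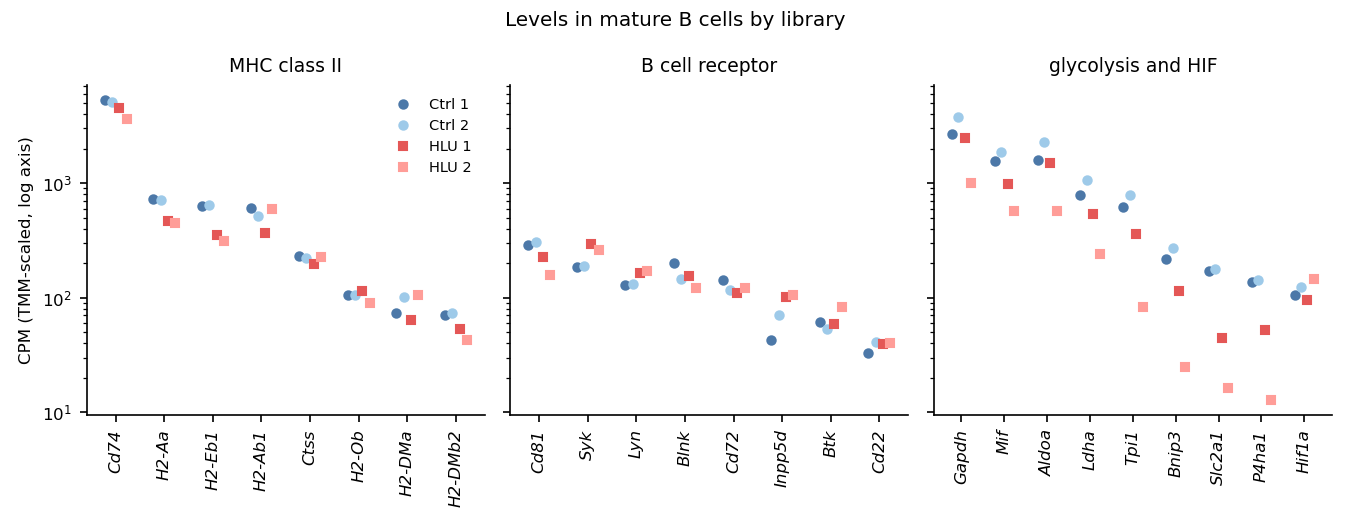
Levels in mature B cells (CPM scaled by TMM, log axis) of class II, B cell receptor and glycolysis and hypoxia genes, 1 point per library, with circles for Ctrl and squares for HLU. H2-Eb1 and H2-Aa sit lower in both HLU libraries (353 and 314, 463 and 448), and most genes of the glycolysis panel are lowest in HLU 2, Hif1a excepted.

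Glycolysis genes and targets of hypoxia-inducible factor were lower in HLU mature B cells in most members, with HLU 2 the lowest. Slc2a1, the gene of the glucose transporter GLUT1, was at 170 and 177 CPM in Ctrl and at 44.5 and 16.3 in HLU, a log2 fold change of -2.46 ± 0.43 (SE) that passed the test (adjusted p = 0.0178). It was the only called gene of the 26 in the list, of which 14 had an unadjusted p under 0.05, 21 had both HLU libraries lower (groups apart in 80.8% of the list against 39.8% of all genes) and 0 both higher; the median was -1.14. Over all 8280 genes tested 2.97% fell, 20.4% had both HLU libraries lower and 773 genes had an unadjusted p under 0.05. Ldha, lactate dehydrogenase A, was at 790 and 1063 against 538 and 243 CPM (adjusted p = 0.247). P4ha1, a prolyl hydroxylase gene, was at 137 and 143 against 52.4 and 12.9 CPM (adjusted p = 0.113). Hif1a itself was at 106, 123, 95.5 and 145 CPM, with the groups overlapping.

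The list was also low in other cells of HLU 2, but not of HLU 1 throughout. On levels without TMM scaling, 18 of the 26 genes lay below both Ctrl libraries in both HLU libraries in mature B cells. In neutrophil-rich barcodes 19 did, in skeletal-rich ones 22, in the other barcodes 10, in precursor B cells 11 and in T cells 11. No share over all genes is given for these unscaled levels, so these counts are not read as a result about the list. Summed over the list, mature B cells had 11807, 15662, 10469 and 4171 CPM (not scaled by TMM) and T cells 13670, 15785, 13687 and 3100 CPM, with HLU 1 between the Ctrl libraries. In the other barcodes the sums were 17132, 23338, 21362 and 6887 CPM. Gm42418 was highest in the same library, at 5324, 6011, 4612 and 41591 CPM (scaled by TMM) in mature B cells, and its part was not tested. HLU 2 held the lowest sums: without it the median was -0.61 with 6 of 26 genes called lower, and without HLU 1 it was -1.88 with 23 called lower. Each of these fits has a single HLU library and its spread from the Ctrl pair alone, so the 23 calls describe HLU 2. Without a filter on low counts 17 of the 26 were called lower, and with at least 10 counts in every library 0. With cells of at least 5% neutrophil or skeletal transcripts left out, the median was -1.24 and 0 were called, Slc2a1 included (adjusted p = 0.146).

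Of 13 glucocorticoid response genes tested, 4 fell and 0 rose, against 2.97% and 0.0845% of all genes tested. Errfi1, a feedback inhibitor of growth factor receptors, fell from 273 and 298 to 4.64 and 12 CPM (log2 fold change -5.20 ± 0.45 SE, adjusted p = 0.000649). Sgk1, a kinase gene that glucocorticoids induce, fell from 111 and 119 to 30.1 and 7.71 CPM (adjusted p = 0.0344), and Rgcc and Klf9 fell as well (adjusted p = 0.0133 and 0.0344). The other Ctrl barcodes held more of each than Ctrl mature B cells, with 568 and 534 CPM of Errfi1 and 335 and 358 of Sgk1. Fkbp5, a gene that glucocorticoids induce in many cells, was at 12.7 and 8.99 against 19.0 and 17.1 CPM (0.82 ± 0.45 SE, adjusted p = 0.692). With the cells rich in other transcripts left out, the calls of Sgk1 and Klf9 were lost (adjusted p = 0.308 and 0.392). Sgk1 also lost it without Ctrl 1 (0.0554) and Klf9 without Ctrl 2 (0.489).

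Of 34 early response and NF-kB genes tested, Klf4 fell, from 119 and 137 to 13.9 and 6.0 CPM (adjusted p = 0.00212), beside 424 and 354 CPM in the other Ctrl barcodes. This 1 call in 34 is near the 2.97% of all genes tested that fell. The remaining 33 did not pass, 13 of 34 had both HLU libraries lower and 1 both higher, and the median was -0.37. Groups were apart in 41.2% of that list, against 39.8% of all genes. Both HLU libraries were lower for 20.4% of all genes and higher for 19.4%. Nfkbid, an NF-kB regulator that is higher in mature B cells than in other barcodes, was at 142 and 189 against 105 and 62.6 CPM (adjusted p = 0.305, and 0.000380 without HLU 1). Hspa1a, a heat shock gene, was at 448, 578, 389 and 0.857 CPM, nearly undetected in HLU 2 only.

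In survival and death, 0 of 17 genes of the BAFF and survival list passed by edgeR (0 at an unadjusted p under 0.05), with 5 higher and 5 lower in both HLU libraries. Groups were apart in 58.8% of that list, against 39.8% of all genes. Tnfrsf13c, the BAFF receptor gene, was at 180, 143, 134 and 158 CPM, and Bcl2 at 63.3, 54.0, 41.7 and 36.0 CPM (-0.57 ± 0.31 SE, adjusted p = 0.674). Of 18 apoptosis genes Cdkn1a, the cell cycle inhibitor p21, fell from 210 and 176 to 59.8 and 72.9 CPM (adjusted p = 0.0222), a call that was lost in several other settings, among them leaving out Ctrl 1 (0.199), Ctrl 2 (0.0810) or the cells rich in other transcripts (0.635). Cdkn1a was the 1 call among these 18 genes, beside 2.97% of all genes tested that fell. The pro-apoptotic gene Bcl2l11 (Bim) was at 129 and 117 against 174 and 173 CPM (0.50 ± 0.27 SE, adjusted p = 0.669).

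The remaining lists held few calls. Of 18 glutamine genes, which matter to this study's question, 0 passed by edgeR (1 at an unadjusted p under 0.05), with a median of 0.04. The glutamine transporter gene Slc1a5 was at 98.7 and 87.9 against 78.8 and 62.6 CPM (adjusted p = 0.809). Of 19 follicular and homing genes tested, 0 passed (1 at an unadjusted p under 0.05), with Ccr7 at 651 and 703 against 566 and 225 CPM (adjusted p = 0.673) and Cxcr5, the follicle homing receptor, at 70.9, 71.9, 73.7 and 84.9. Of 6 marginal zone and B-1 genes 0 passed by edgeR (2 at an unadjusted p under 0.05): Bhlhe41, a B-1 cell factor, was at 58.2 and 49.96 against 23.2 and 18.9 CPM (adjusted p = 0.101), and Cd9 at 451 and 743 against 290 and 203 CPM (adjusted p = 0.132), beside a UMI of Cd9 in 95.4% to 96.8% of neutrophil-rich barcodes.

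Of 22 cell cycle genes 0 passed by edgeR (3 at an unadjusted p under 0.05); Top2a was at 12.7 and 15.99 against 43.1 and 42.9 CPM (1.53 ± 0.36 SE, adjusted p = 0.0808), beside means of 46.6 (Ctrl) and 152 CPM (HLU) in the other barcodes. Mki67 had a UMI in 0.0%, 1.60%, 5.06% and 3.05% of mature B cells, below the 14.2% to 27.8% of neutrophil-rich barcodes. Those barcodes may express Mki67 themselves, so the comparison cannot decide whether mature B cells did, and no cycling is read from it. Among 6 switched and memory genes tested, Nt5e fell from 124 and 113 to 2.32 and 3.43 CPM (adjusted p = 0.000349), beside 251 and 252 CPM in the other Ctrl barcodes. Of all genes tested 2.97% fell. The interferon (10 tested), plasma cell (7) and germinal centre (5) lists had 0 calls by edgeR and 0 genes at an unadjusted p under 0.05. Of 90 ribosomal protein genes 0 passed (2 at an unadjusted p under 0.05), with 64 lower and 2 higher in both HLU libraries (20.4% and 19.4% of all genes) and a median of -0.28; their summed level was 268670, 259090, 237780 and 218550 CPM in mature B cells, without TMM scaling.

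The change between HLU and Ctrl was also compared between mature and precursor B cells of the same libraries. Of 8176 genes tested, 3 (0.0367%) had a change that differed (edgeR's quasi-likelihood test with a library block, Benjamini-Hochberg), with 263 at an unadjusted p under 0.05: Loxl2 (adjusted p = 0.0423), Ighg2b and Hist1h2ap (both 0.0433). Loxl2 in HLU 1 came from 1 mature B cell with 337 UMIs, and Ighg2b, an IgG heavy chain gene, from 1 precursor barcode with 2367 of 2377 UMIs. Hist1h2ap, a histone gene, was spread over more cells, with 66.1, 145, 297 and 86.8 CPM in mature and 337, 873, 312 and 45.2 CPM in precursor B cells. DESeq2 called 0 genes (103 at an unadjusted p under 0.05), and HLU 2 gave only 18 precursor cells, which limits the size of difference that this depth can show. These 18 cells did not carry the precursor pattern of the other libraries (above). Without TMM scaling, Ighd was at 28.6, 210, 259 and 1067 CPM in precursor B cells of Ctrl 1, Ctrl 2, HLU 1 and HLU 2. Of the Jchain UMIs in precursor B cells, 1 barcode held 2198 of 2842 in Ctrl 1 and 1 held all 585 in HLU 2. For HLU 2 the test therefore does not set mature cells against a clear precursor stage.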

How the data were processed

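Bone tissue of 2 Ctrl and 2 HLU mice was profiled with the Single Cell 3′ kit, version 3.1. The authors aligned reads and counted UMIs with Cell Ranger 6.0.0 on mm10 and deposited raw counts of 31053 genes per barcode, without normalization; Seurat 4.1.0 is named in the submitters' processing notes. Barcodes with 1000 to 40000 UMIs, at least 200 genes, at most 10% mitochondrial and at most 0.2% haemoglobin UMIs were kept, as in the study. Counts of the members were summed per library and tested with edgeR 4.0.16 (TMM scaling, filterByExpr, glmQLFTest, Benjamini-Hochberg adjusted p under 0.05), leaving out the genes of the rule and mitochondrial and haemoglobin genes. DESeq2 1.42.0, under R 4.3.3, was an alternative; Scrublet in scanpy 1.11.5 marked doublets (0.8% per 1000 barcodes), which were kept in the main analysis. Python 3.11.15, numpy 2.4.6, scipy 1.17.1, pandas 2.3.3 and matplotlib 3.10.9 did the rest. Shares were compared by two-sided exact permutation tests over libraries.

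The members, gene lists and tests were chosen with earlier results of these data known. Named are the genes of the rule, list members (first those called or of at least 50 CPM), the 10 largest rises and falls among called genes whose groups did not overlap, and the 15 genes highest over other barcodes among those of at least 100 CPM in every library. The 6 genes with the smallest p among genes 2-fold higher in mature B cells were added, and Pmepa1 and Gdf5 named, after values were seen; some genes that the rule names are not reported here. Replicate numbers do not pair the libraries (correlation of the deviations of Ctrl 1 and HLU 1 -0.047 across 8280 genes), so the fit has no block. In counts simulated for this comparison over 8302 genes, edgeR recovered 163 of 200 changed genes with 16 false calls. The changed genes were not of low count, all had the same large fold change, and every gene had the same dispersion. Smaller changes, changes in genes of low count and an outlying library were not simulated, so this recovery does not carry over to them. No library was a duplicate (chi-squared per degree of freedom of 3.35 to 20.9 between members' gene totals). The p-values rest on 2 animals a group.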

Additional observations from a re-analysis of the deposited data

Results flagged for a closer look

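In 3 genes the change between HLU and Ctrl differed between mature and precursor B cells by edgeR's interaction test. The log2 difference, mature minus precursor, was 7.21 for Loxl2 (adjusted p = 0.0423), -5.29 for Ighg2b (0.0433) and 2.63 for Hist1h2ap (0.0433). Loxl2 and Ighg2b each rest on 1 barcode of HLU 1, with 337 and 2367 UMIs.

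Barcodes above the haemoglobin limit were not part of any comparison, yet some met every other condition of the mature B cell rule. They were 0 of 25 such barcodes in Ctrl 1, 1 of 135 (0.741%) in Ctrl 2, 1 of 161 (0.621%) in HLU 1 and 13 of 528 (2.46%) in HLU 2. Groups of 2 libraries are too small to test for an outlying sample.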

How the results depend on the processing

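The larger mean share of mature B cells in HLU kept its direction under every alternative tried. Differences were 1.68 to 6.19 percentage points by denominator or cell limit and 1.88 to 3.68 with a library left out. The groups overlapped, with HLU 2 below Ctrl 2, among barcodes with a Ptprc UMI (exact permutation p = 0.667). They also did so among barcodes low in S100a8, S100a9 and skeletal transcripts, and with at least 2000 UMIs (exact permutation p = 0.667 each). Leaving out 1 library gave differences of -3.76 (without HLU 2) to 26.8 percentage points for mature cells among B lineage cells, of -1.03 (without HLU 1) to 4.85 for mature B cells per T cell, and of -8.35 to 1.33 (without HLU 2) for the lambda share. The lambda difference also turned to 0.663 without putative doublets and to 1.28 without the barcode over 20% immunoglobulin UMIs.

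The 253 called genes became 679 without a filter on low counts, 17 with at least 10 counts in every library, 84 without cells of at least 5% neutrophil or skeletal transcripts (83 of them among the 253), 0 among genes 2-fold higher in mature B cells, and 163 to 1006 with a library left out. The replicate block gave 272, of which 230 were among the 253; since the numbers do not pair the samples, it has no further weight. The 3 genes of the stage comparison became 36 without the filter, 0 with at least 10 counts, 0 with DESeq2, 38 without doublets and 10 to 22 with a library left out. H2-Ab1 ranged from -0.60 to 0.072 (without HLU 1) in log2 fold change with a library left out. Of 505 values for 36 named genes, 451 kept direction and side of the threshold, 44 lost the call, 9 gained it and 1 reversed, the H2-Ab1 value above. The cause of these changes was not tested.

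With 2 animals a group no exact test can pass, and 81 cells in Ctrl 1 limit genes of low level. The cells over 5% and the barcode over 20% were left out, and the 2-fold genes counted, as alternatives chosen after seeing the data. A fit with a library left out has 1 library in that group, which is assumed to vary like the other group.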
